A study of Homo sapiens with 18 samples.

Results

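The genes described here are CGA and 6 other genes of hormone-secreting and neuroendocrine cells, PCSK1, VGF, SCG2, SCG5, CHGA and CHGB, each taken as the sum of its transcripts. These 7 members, out of 34255 genes joined in all, were chosen by their measured counts in these libraries, with earlier results known: by the basal level in each of the 3 cell lines and by the level after isoproterenol. Those levels and changes are therefore given as a description, with no p-value, and where members past a threshold are counted beside the share of all genes, the count supports nothing. Of the 7, 6 passed the filter on low counts and were among the 15519 genes fitted, and CHGA did not. SCG5, with a median of 5.0 counts over the 18 libraries, and CHGA, with a median of 0.0, are marked below as low-count genes.

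CGA encodes the α subunit that is shared by the glycoprotein hormones of the pituitary and the placenta, and each hormone gains its identity from a separate β subunit. Its promoter is a textbook target of cAMP: a Gs-coupled receptor raises cAMP through adenylyl cyclase, protein kinase A phosphorylates CREB, and CREB binds the cAMP response element. PCSK1 encodes a convertase that cuts prohormones, SCG5 a chaperone of the related convertase PCSK2, VGF a granin-like precursor, and SCG2, CHGA and CHGB the granins, acidic proteins of the dense-core secretory granule. In neuroendocrine cells several of these genes respond to cAMP and to the repressor REST.

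RNA was taken from HEK293 wildtype cells, a human embryonic kidney line, and from its CRISPR-Cas9 derivatives β-arrestin1/2 KO and Gαs KO. All groups carried a transiently transfected receptor plasmid, in amounts chosen to give similar receptor levels at the surface, were serum starved overnight and, 48 h after transfection, received vehicle (basal) or 1 μM isoproterenol, an agonist of that receptor, for 1 h. The 6 groups thus were wildtype basal, wildtype isoproterenol, β-arrestin1/2 KO basal, β-arrestin1/2 KO isoproterenol, Gαs KO basal and Gαs KO isoproterenol, with 3 libraries each. Whether each KO line is a single clone is not given in the sources used here, so a difference between lines cannot be told apart from a difference between clones. In bulk RNA, fewer cells with a transcript and less of it per cell cannot be told apart either.

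Libraries held between 17908597 and 25019834 expected counts. GNAS, the gene of Gαs, was at 1317 ± 379 CPM (counts relative to the scaled library total, mean ± SD, n = 3) in wildtype basal and 66.0 ± 5.04 CPM in Gαs KO basal cells (log2 difference -4.32, SE 0.15, edgeR adjusted p = 9.4e-12). ARRB2 fell from 98.9 ± 28.6 CPM in wildtype basal to 20.8 ± 2.55 CPM in β-arrestin1/2 KO basal cells (log2 -2.25, SE 0.15, edgeR adjusted p = 2.6e-08). ARRB1 was at 49.6 ± 14.0 and 41.0 ± 2.87 CPM (log2 -0.27, SE 0.14, edgeR adjusted p = 0.14), which leaves the ARRB1 deletion unchecked at the RNA level. Wildtype basal replicate 1 stood apart, with a count-weighted GC content of 52.5% against 49.2 to 50.1% in the other 17 libraries. Without it the number of genes called in the wildtype response went from 72 to 173 and in the β-arrestin1/2 KO response from 175 to 1849. Markers listed for HEK293 cells were present, 6 of 6 with a median of at least 10 counts, and summed to 1749 to 2497 CPM in wildtype cells, 1682 to 1830 in β-arrestin1/2 KO and 2936 to 3017 in Gαs KO cells. Of the markers of other CGA-expressing or neuroendocrine cells, 1 of 8 for pituitary gonadotrophs and thyrotrophs (TBX19), 1 of 10 for placental syncytiotrophoblast (ERVW-1) and 2 of 8 for adrenal chromaffin and other neuroendocrine cells (PNMT and INSM1) reached that median. Their sums lay between 1.75 and 5.27, between 4.29 and 10.4 and between 2.84 and 14.7 CPM, and FSHB was at 0 in all 18 libraries. The last of these sums was 7.81 to 10.2 CPM in wildtype basal, 10.7 to 13.6 in wildtype isoproterenol, 8.66 to 10.6 in β-arrestin1/2 KO basal, 12.6 to 14.7 in β-arrestin1/2 KO isoproterenol and 2.84 to 4.65 in Gαs KO cells, and the part of this sum and of the HEK293 sum in the levels of the members was not tested.

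The genes lie apart in the genome (GRCh38, GENCODE 29): CGA at chr6:87085498-87095406, PCSK1 at chr5:96390415-96434143, VGF at chr7:101162509-101165593 and SCG2 at chr2:223596940-223602503, all on the minus strand, and SCG5 at chr15:32641676-32697098, CHGA at chr14:92923080-92935293 and CHGB at chr20:5911430-5925361 on the plus strand.

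The promoters of 4 members carry the 8-base cAMP response element, the textbook binding site of CREB. These stretches are shown because several of the members are known to respond to cAMP in neuroendocrine cells. The windows run from 250 bases before to 50 bases after the RefSeq start site (build GRCh38.p14). Of the 7 members, 5 had a window, and SCG2 and CHGB had none. The palindrome TGACGTCA was searched, together with its 5-base core TGACG on both strands, of which the palindrome holds 2 overlapping copies. In the lines below, 30 bases of the sense strand are given 5′ to 3′, with the palindrome in capitals.
CGA: atTGACGTCAtggtaaaaatTGACGTCAtg
PCSK1: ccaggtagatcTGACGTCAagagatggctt
VGF: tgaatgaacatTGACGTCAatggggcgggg
CHGA: ggcggcaccgcTGACGTCAtttccggggtc

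The CGA stretch lies at chr6:87095221-87095250 on the minus strand, bases -144 to -115 before the start site at 87095106. Its 2 palindromes begin 18 bases apart and belong to an 18-base unit that is present 2 times in direct succession, from base -146 to base -111. The PCSK1 stretch is at chr5:96433307-96433336 (minus strand, -88 to -59), that of VGF at chr7:101165630-101165659 (minus strand, -90 to -61) and that of CHGA at chr14:92923085-92923114 (plus strand, -65 to -36). A further start site listed for PCSK1, at 96432160, had no match in its window. SCG5 had the 5-base core alone, at -17 to -13. Among all 35116 promoter windows, 1.85% held at least 1 palindrome, 0.0598% held at least 2, and 24.6% held the core. CGA was among the 21 windows with at least 2. By GENCODE 29 the CGA and CHGA stretches lie within the first exon of an annotated transcript, CGA-204 and CHGA-201, since those models start upstream of the RefSeq start site, by 300 bases for CGA-204. The PCSK1 and VGF stretches overlapped no annotated exon of their gene. These matches are letters in a window and do not show binding.

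**Figure D1:**
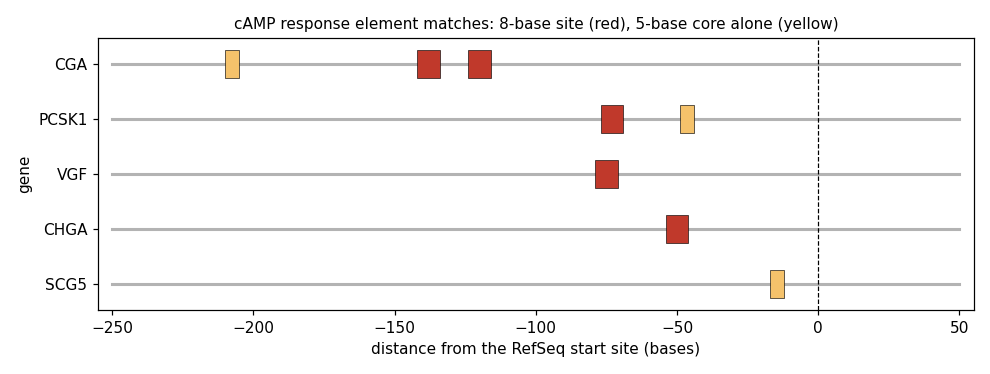
Positions of cAMP response element matches in the 5 member promoters with a window, as distance in bases from the RefSeq start site (dashed line). Red boxes are the 8-base palindrome and yellow boxes the 5-base core alone. CGA has 2 palindromes, at -142 and -124, PCSK1, VGF and CHGA have 1 each, and SCG5 has the core only.

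CGA was the most variable member between the cell lines. In wildtype cells it was abundant, in β-arrestin1/2 KO cells under vehicle it stood well below that level, and in Gαs KO cells it was nearly absent. The wildtype basal libraries held 550, 519 and 536 CPM, the β-arrestin1/2 KO basal libraries 150, 172 and 207 CPM, and the Gαs KO basal libraries 0.878, 0.392 and 0.70 CPM, the last from 18, 8 and 16 counts. No library of one line overlapped those of another. Set against the wildtype basal mean, β-arrestin1/2 KO basal cells had 33.0% ± 5.35 and Gαs KO basal cells 0.123% ± 0.0460 (SD, n = 3), that is, 815-fold less. On the log2 scale of the fit these were differences of -1.60 (SE 0.13) and -9.65 (SE 0.21) from wildtype, and of -8.05 (SE 0.21) between the KO lines. Without wildtype basal replicate 1 the first 2 values were -1.57 and -9.63. By TPM, a level that divides by transcript length and so allows comparison between genes, CGA was at 946 ± 79.4 TPM in wildtype basal cells and ranked 146 from the top of the 15519 genes. It ranked 346 in β-arrestin1/2 KO and 13399 in Gαs KO basal cells, at 355 ± 56.7 and 1.27 ± 0.480 TPM. Of the fitted basal differences of Gαs KO from wildtype, that of CGA was the 9th lowest of the 15519.

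After 1 h of isoproterenol the level of CGA was higher in β-arrestin1/2 KO cells and overlapped the basal level in the other 2 lines. The β-arrestin1/2 KO isoproterenol libraries held 432, 318 and 382 CPM, all above the basal libraries of the line and all below the 6 wildtype libraries, and their mean was 70.5% ± 10.6 of wildtype basal. The wildtype isoproterenol libraries held 572, 515 and 459 CPM and lay on both sides of their basal libraries. The Gαs KO isoproterenol libraries held 0.767, 0.767 and 0.772 CPM, from 15, 15 and 13 counts, within the range of the Gαs KO basal libraries. Log2 fold changes over basal were 1.10 (SE 0.13) in β-arrestin1/2 KO, -0.05 (SE 0.13) in wildtype and 0.22 (SE 0.33) in Gαs KO cells. The response in β-arrestin1/2 KO cells was 1.15 above that in wildtype cells (SE 0.19), and the response in Gαs KO cells 0.28 above it (SE 0.35). By size the β-arrestin1/2 KO response of CGA ranked 199 from the highest of the 15519 fitted values.

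**Figure D2:**
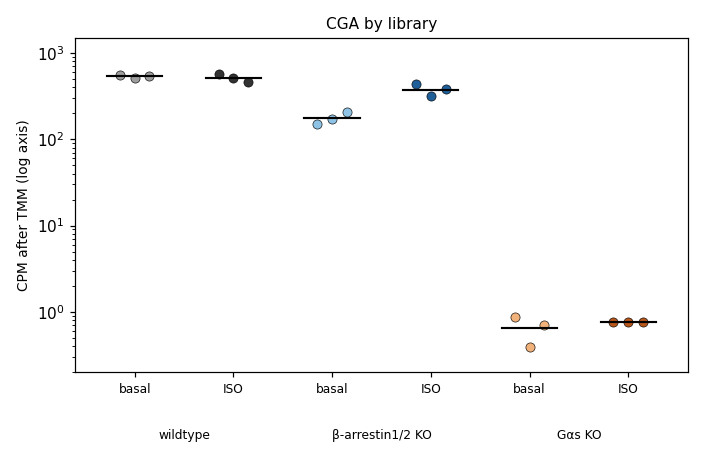
CGA in each of the 18 libraries as CPM after TMM scaling on a log axis, by cell line and treatment (ISO, isoproterenol); points are libraries and bars are means. Wildtype libraries lie between 459 and 572 CPM, β-arrestin1/2 KO libraries go from 150 to 207 at basal to 318 to 432 with isoproterenol, and Gαs KO libraries lie under 1 CPM.

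The transcripts of CGA differed in their response. CGA-204, a model of 4 exons, took at least 97.6% of the counts of the gene in every library, and its values followed the gene sum. CGA-205 and CGA-206 are annotated models whose exons take in intron sequence. CGA-205 holds 414 bases of intron 2 and CGA-206 all 416 bases of intron 3. Other models hold some too: CGA-203 has 299 bases of intron 1, CGA-202 93 of intron 2, and CGA-201 52 and 19 of introns 1 and 2. The summed level of CGA-205 and CGA-206, chosen for description after the transcript values were seen, was 0.485, 0.535 and 1.83 CPM in wildtype basal libraries. In wildtype isoproterenol libraries it was 5.33, 4.61 and 3.70 CPM. In β-arrestin1/2 KO cells it went from 0.789, 0.412 and 0.525 CPM to 9.19, 7.21 and 8.16 CPM. It was 0 in all 6 Gαs KO libraries. In wildtype cells, then, these 2 models were higher after isoproterenol in every library while the gene sum was not. This does not hold for all models with intron sequence. In wildtype cells CGA-201 went from 1.74 ± 0.353 to 1.07 ± 0.411 CPM and CGA-203 from 0.20 ± 0.193 to 0.226 ± 0.254 CPM. In the β-arrestin1/2 KO line CGA-201 went from 0.0153 to 0.343 CPM and CGA-203 from 0.0 to 0.30 CPM. The ratios below are those of CGA-205 and CGA-206 only. The ratio of the means was 4.79 in wildtype and 14.2 in the β-arrestin1/2 KO line, and it was 8.92 in wildtype cells without basal replicate 3. As a share of CGA counts, the 2 models were 0.177% ± 0.142 and 0.878% ± 0.0641 in wildtype and 0.339% ± 0.160 and 2.18% ± 0.0774 in β-arrestin1/2 KO cells, basal and isoproterenol in turn.

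The counts behind these values were few and were divided among overlapping models by Salmon. With transcripts as features, the log2 fold change of CGA-206 was 2.17 (SE 0.69) in wildtype and 3.91 (SE 0.74) in the β-arrestin1/2 KO line, and that of CGA-205 was 2.94 (SE 1.27) and 3.71 (SE 1.28). Neither was among the 55 and 118 transcripts called of 60987 in the 2 lines, a background of 0.0902% and 0.193%. CGA-204 was called in β-arrestin1/2 KO cells, at 1.08 (SE 0.17), and not in wildtype cells, at -0.02 (SE 0.17). CGA-205 and CGA-206 each had all 3 isoproterenol libraries above all 3 basal libraries in both lines. So did 5.14% of all transcripts in wildtype and 7.65% in the β-arrestin1/2 KO line.

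**Figure D3:**
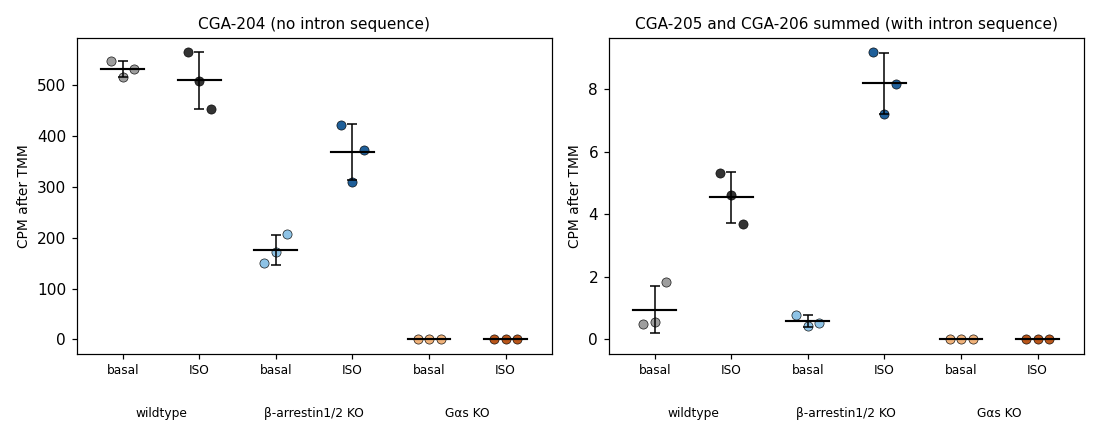
CPM of CGA-204 (left) and of CGA-205 and CGA-206 summed (right) in each library, by line and treatment (ISO, isoproterenol); points are libraries, and bars are means with SD. The left panel shows an overlap between basal and isoproterenol in wildtype cells, and the right panel none, with means of 0.949 and 4.55 CPM.

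Among the genes fitted, those whose pattern was most like CGA over the 18 libraries, by Pearson's correlation of log2 CPM, were GJB2 (r = 0.996), SHISA2 (0.995), GPC3 (0.993), RBPMS2 (0.993) and RDH11 (0.991). The libraries share their line, so these values mostly describe the drop in Gαs KO cells: GJB2, a gap junction subunit, was at 708, 331 and 5.37 CPM in basal wildtype, then β-arrestin1/2 KO, then Gαs KO cells, and SHISA2 at 1346, 1018 and 31.8 CPM. Over the 6 group means, among genes of at least 50 counts, the closest were FABP5, GPC3, PAPSS2, SERINC5 and RHNO1, with r between 0.998 and 0.999. None of these 9 genes was called in the wildtype or the β-arrestin1/2 KO response.

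The other members were low by comparison, none above 6.86 CPM in any library. By length-adjusted level in wildtype basal cells, VGF was at 1.91 ± 0.498, PCSK1 at 1.85 ± 0.760, SCG2 at 1.35 ± 0.165, SCG5 at 1.16 ± 0.205, CHGB at 1.01 ± 0.785 and CHGA at 0.0720 ± 0.0812 TPM, so that only CHGA stood below the rest by more than the spread between libraries.

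PCSK1, the prohormone convertase, shared with CGA the order of the lines. Its wildtype basal libraries held 3.16, 5.94 and 4.79 CPM, the β-arrestin1/2 KO basal libraries 2.41, 1.99 and 3.54 CPM, and the Gαs KO basal libraries 0.146, 0.147 and 0.438 CPM, from 3, 3 and 10 counts. The Gαs KO libraries lay below all others, while wildtype and β-arrestin1/2 KO overlapped. The difference of Gαs KO from wildtype was -4.18 on the log2 scale (SE 0.40), or -4.92 without Gαs KO basal replicate 3, and the ratio of summed counts put wildtype 18.3-fold higher (95% exact interval for counting error 11.1 to 32.6). Of β-arrestin1/2 KO from wildtype it was -0.81 (SE 0.32), which was not called unless wildtype basal replicate 1 was left out (-1.02). With isoproterenol PCSK1 was at 4.71 ± 0.672 CPM in wildtype and 3.23 ± 0.543 in the β-arrestin1/2 KO line, against 4.63 ± 1.4 and 2.64 ± 0.801 at basal, and the groups overlapped. In Gαs KO cells 29 counts stood against 16 at basal, again with overlap. Over the 18 libraries its correlation with CGA was 0.963, the closest among the members, of which the next was SCG5 at 0.277.

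VGF, the granin-like precursor, was highest in β-arrestin1/2 KO cells. The β-arrestin1/2 KO basal libraries held 4.71, 4.75 and 5.97 CPM, above the 3.75, 1.75 and 2.87 CPM of wildtype basal and the 2.83, 3.23 and 2.98 CPM of Gαs KO basal libraries, whose ranges overlapped. Its log2 difference was 0.88 (SE 0.23) for β-arrestin1/2 KO and 0.11 (SE 0.24) for Gαs KO against wildtype. Isoproterenol means were 3.61 ± 0.322 CPM in wildtype cells, 5.93 ± 0.827 in β-arrestin1/2 KO and 3.99 ± 0.761 in Gαs KO cells. The log2 fold changes over basal, 0.37 (SE 0.24), 0.20 (SE 0.23) and 0.40 (SE 0.23), were all of the same sign and each less than 2 times its SE. With GC and length offsets the value in β-arrestin1/2 KO cells was 0.51 (SE 0.18). Only in Gαs KO cells did the isoproterenol libraries, at 3.58, 3.53 and 4.87 CPM, lie above all basal libraries. In most libraries Salmon put all counts of VGF on the model VGF-201, but in wildtype basal replicate 2 all 30 were on VGF-202, so the gene sum is given.

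SCG2, also called secretogranin II, was the member that nearly vanished in β-arrestin1/2 KO cells and stayed in Gαs KO cells. Its basal libraries held 2.01, 1.75 and 2.10 CPM in wildtype, 2.54, 2.06 and 1.97 CPM in Gαs KO, and 0.110, 0.0827 and 0.111 CPM in β-arrestin1/2 KO cells, the last from 2 counts in each library. Wildtype and Gαs KO libraries overlapped, and no β-arrestin1/2 KO library came near them. The ratio of summed counts put wildtype 19.7-fold above β-arrestin1/2 KO (95% exact interval for counting error 8.76 to 55). With isoproterenol the wildtype libraries held 3.06, 2.65 and 2.73 CPM, all above basal, with a log2 fold change of 0.52 (SE 0.32), or 0.36 with offsets for GC and length. In Gαs KO cells 2.30, 2.76 and 2.32 CPM overlapped basal (0.17, SE 0.32), and in β-arrestin1/2 KO cells the counts were 8, 1 and 7, also with overlap, a count ratio of 2.84 over basal (95% exact interval 1.06 to 8.87).

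CHGB, chromogranin B, did not separate the lines. Its group means lay between 0.794 ± 0.141 CPM in β-arrestin1/2 KO basal and 1.34 ± 0.480 CPM in β-arrestin1/2 KO isoproterenol cells, from 7 to 34 counts in a library, and the groups overlapped in each comparison made. The log2 fold changes with isoproterenol were 0.12 (SE 0.44) in wildtype cells, 0.75 (SE 0.44) in β-arrestin1/2 KO and 0.51 (SE 0.44) in Gαs KO cells.

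The low-count members allow little. SCG5 had 17, 11 and 12 counts in wildtype basal and 32, 42 and 16 in wildtype isoproterenol libraries, 0.756 ± 0.150 and 1.64 ± 0.692 CPM, which overlapped. It had 0 to 5 counts in the 6 β-arrestin1/2 KO libraries and 1 to 9 in the 6 Gαs KO libraries. At basal, wildtype was 7.66-fold above β-arrestin1/2 KO (95% exact interval 3.23 to 22.1) and 3.23-fold above Gαs KO (1.75 to 6.29), and no basal library of the KO lines reached a wildtype one. Without β-arrestin1/2 KO basal replicate 1 the fitted log2 difference of that line went from -2.83 to -4.67. CHGA, chromogranin A, was at 0 in 10 of the 18 libraries and never above 9 counts, the most in β-arrestin1/2 KO basal libraries, which had 2, 7 and 9. Its sums were 4 and 8 counts in wildtype, 18 and 3 in β-arrestin1/2 KO, and 2 and 0 in Gαs KO cells, basal and isoproterenol in turn. β-arrestin1/2 KO basal thus stood 5.63-fold above isoproterenol (95% exact interval 1.64 to 29.8) in summed counts, with overlap of the libraries, and 9.48-fold above Gαs KO basal (2.27 to 84.3). With its palindrome CHGA showed no rise with isoproterenol that could be seen at this depth.

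**Figure D4:**
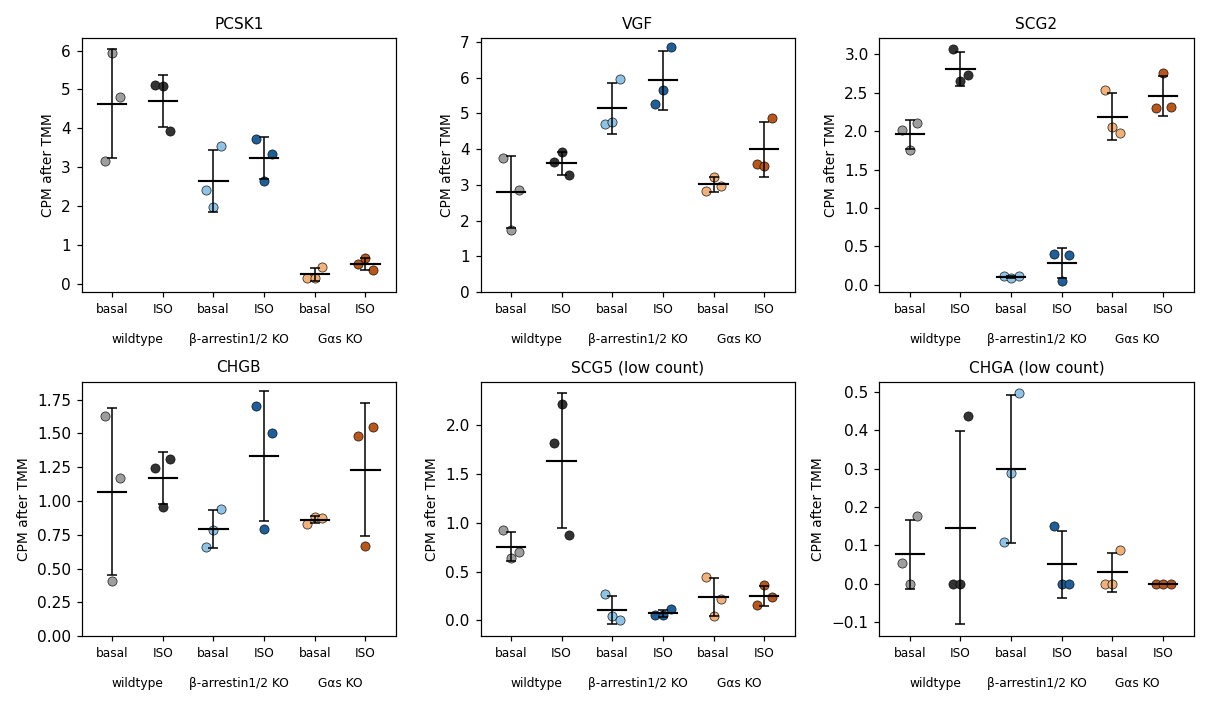
The 6 members other than CGA in each library, as CPM after TMM scaling, by line and treatment (ISO, isoproterenol), each on its own axis; points are libraries, and bars are means with SD. PCSK1 is lowest in Gαs KO, SCG2 is lowest in β-arrestin1/2 KO, VGF is highest in β-arrestin1/2 KO, and CHGB overlaps in each comparison made.

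The members were chosen on these comparisons, so nothing is read from how many were called. At a Benjamini-Hochberg adjusted p under 0.05, CGA was the 1 of the 6 members fitted that was called in the β-arrestin1/2 KO response and in its difference from the wildtype response, where 1.13% and 0.168% of all genes were called. No member was called in the wildtype response, the Gαs KO response or the difference of the Gαs KO from the wildtype response, with a background of 0.464%, 0.0% and 0.161%. In the Gαs KO response edgeR called 0 of all genes, with 163 at an unadjusted p under 0.05, and DESeq2 called 9. The basal comparisons called 4 members for β-arrestin1/2 KO against wildtype (VGF higher, CGA, SCG2 and SCG5 lower), 2 for Gαs KO against wildtype (CGA and PCSK1 lower) and 4 for Gαs KO against β-arrestin1/2 KO (SCG2 higher, CGA, PCSK1 and VGF lower). The background was 33.6%, 31.3% and 26.2% of all genes, and the median log2 difference of the members was -1.21, -0.99 and -0.33 against 0.02, 0.01 and 0.00 over all genes. Not overlapping and higher with isoproterenol was 1 member in each line, SCG2 in wildtype cells, CGA in β-arrestin1/2 KO and VGF in Gαs KO cells, against 4.85%, 15.4% and 4.9% of all genes. The call of the difference between the CGA responses was lost with only the groups compared and in 5 of the 18 fits that left out a library, with values from 1.03 to 1.27.

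The other genes of glycoprotein hormone subunits, among them the β subunits that pair with the product of CGA, were all but absent. Of these 11 genes, not all of which are partners of CGA, only CGB7 and GPHA2 passed the filter. Neither was called in any comparison, and their group means lay between 0.413 and 0.876 CPM. FSHB was at 0 throughout, TSHB had at most 3 counts and LHB at most 8. The CGB genes and LHB are near-identical copies, between which reads cannot be divided with certainty.

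Of 26 further genes of prohormone processing and of the secretory granule, 23 were fitted and 0 were called in any of the isoproterenol responses or their differences. By edgeR, 2 had an unadjusted p under 0.05 in the wildtype, 3 in the β-arrestin1/2 KO and 0 in the Gαs KO response. Without wildtype basal replicate 1, RAB3A was called in the wildtype response (1.93), and 1 gene was lower in the β-arrestin1/2 KO response. In the basal comparison of β-arrestin1/2 KO with wildtype, 11 were then higher and 5 lower, when 7368 of all genes were called. With all libraries, 8 were higher and 3 lower at basal in β-arrestin1/2 KO than in wildtype cells, where 33.6% of all genes were called. SCG3, a granin, differed by 1.32 (SE 0.40, edgeR adjusted p = 0.018), RAB3A, a granule GTPase, by 1.29 (SE 0.35, edgeR adjusted p = 0.0098) and PCSK2, the convertase that SCG5 assists, by 1.10 (SE 0.34, edgeR adjusted p = 0.019). All of these were under 3 CPM, as was SCG2, which went the other way. In Gαs KO cells 2 were higher and 2 lower than in wildtype, where 31.3% of all genes were called. Leaving out wildtype basal replicate 1 made this 8 and 3, when 7236 of all genes were called. CPE, the carboxypeptidase that trims what PCSK1 has cut, was at 290 CPM in Gαs KO, 185 in β-arrestin1/2 KO and 139 in wildtype basal cells. It thus was higher in Gαs KO than in wildtype cells by 1.06 (SE 0.08, edgeR adjusted p = 6.1e-08), where PCSK1 itself was lower.

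Of 18 neuropeptide and amine genes with a known cAMP response, 8 were fitted. NTS, the neurotensin precursor, was the 1 called with isoproterenol, in the β-arrestin1/2 KO response, where 1.13% of all genes were called. Its β-arrestin1/2 KO libraries went from 0.603, 0.496 and 0.663 CPM to 1.86, 1.37 and 3.51 CPM, by 1.93 on the log2 scale (SE 0.45, edgeR adjusted p = 0.046). Its wildtype libraries, at 2.67, 3.09 and 3.10 CPM at basal and 3.46, 5.19 and 3.27 with isoproterenol, overlapped the latter only through the 3.51 CPM of a single β-arrestin1/2 KO library. Like CGA, NTS was lower at basal in β-arrestin1/2 KO (-2.32, SE 0.45, edgeR adjusted p = 0.00078) and in Gαs KO (-2.95, SE 0.46, edgeR adjusted p = 0.00015) than in wildtype cells. Its response was called in 5 of the 18 fits that left out a library, and its difference from the wildtype response was 1.5 (SE 0.59, edgeR adjusted p = 0.73). Without wildtype basal replicate 1, TAC1 was also called in the β-arrestin1/2 KO response, at 1.14, which made 2 of the 9 genes then fitted. At basal 2 genes of the list were higher and 3 lower in β-arrestin1/2 KO cells, and 1 higher and 3 lower in Gαs KO cells. Of all genes, 33.6% and 31.3% were called in these comparisons. PENK, the enkephalin precursor, was higher in β-arrestin1/2 KO cells by 2.38 (SE 0.70, edgeR adjusted p = 0.016). This came from 25, 38 and 24 counts against 0, 10 and 4 in wildtype basal libraries. Leaving out wildtype basal replicate 1 gave 1.79. The PENK call was lost with only the groups compared and with unmatched transcripts kept. TAC1, the substance P precursor, was lower in β-arrestin1/2 KO cells by 2.07 (SE 0.35, edgeR adjusted p = 0.00026). BDNF was higher in both KO lines, by 2.04 and 2.07.

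The early targets of cAMP and CREB, against which the members can be read, moved in the 2 lines that have Gαs. Of 15 such genes 10 rose in wildtype and 11 in the β-arrestin1/2 KO line, and 0 were called in Gαs KO cells, where 1 had an unadjusted p under 0.05. Of all genes, 0.464%, 1.13% and 0.0% were called in these responses. The median log2 fold change of the list was 2.07, 2.77 and 0.05, against a median near 0 over all genes. NR4A2, a nuclear receptor, rose by 3.52 (SE 0.13) in wildtype and 4.68 (SE 0.14) in the β-arrestin1/2 KO line, and PCK1, the gluconeogenic enzyme PEPCK, by 3.23 (SE 0.17) and 4.92 (SE 0.18). The edgeR adjusted p were 1.2e-10, 3.0e-12, 5.7e-09 and 3.1e-11. In wildtype cells CGA, at -0.05, stood below all 15 of these genes. Among the 11 targets called in β-arrestin1/2 KO cells, the 1.10 of CGA stood below the 10 called in both lines and above CREM, at 0.56. Targets not called are left out of this order, among them PDE4B, which went from 1.22 ± 0.454 to 2.95 ± 0.412 CPM. Of these targets, 5 had a larger log2 response in β-arrestin1/2 KO than in wildtype cells by the test of the difference, where 0.168% of all genes were called. They were NR4A3, PCK1, NR4A1, NR4A2 and DUSP1, by 1.04 to 2.05. NR4A3 was lost in 3 of the 18 fits with a library left out and with unmatched transcripts kept, and DUSP1 with only the groups compared. At basal NR4A1, NR4A3 and NR4A2 were lower in the β-arrestin1/2 KO line, at 45.8, 2.08 and 9.02 CPM against 158, 6.62 and 13.6 in wildtype. PCK1 and DUSP1 were not, at 19.6 and 111 against 14.4 and 85.1 CPM. After isoproterenol NR4A1 was at 473 CPM in β-arrestin1/2 KO and 563 in wildtype cells. Without wildtype basal replicate 1, 14 of the 15 were called in the β-arrestin1/2 KO response. At basal, 12 of the 15 were lower in Gαs KO than in wildtype cells, and 4 were higher and 6 lower in β-arrestin1/2 KO cells. Of all genes, 31.3% and 33.6% were called in these comparisons. PCK1 was lower in Gαs KO cells by 4.03 (SE 0.23, edgeR adjusted p = 2.6e-09). The palindrome was in the windows of 2 of the 13 early targets that had one, CREM and DUSP1, and in those of 4 of the 5 members with a window. The 5-base core was in those of 10 of these 13 targets and of all 5 members. Of all 27305 genes with a window, 2.25% held the palindrome and 28.4% the core. The members were chosen with results known, so nothing is read from these shares.

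**Figure D5:**
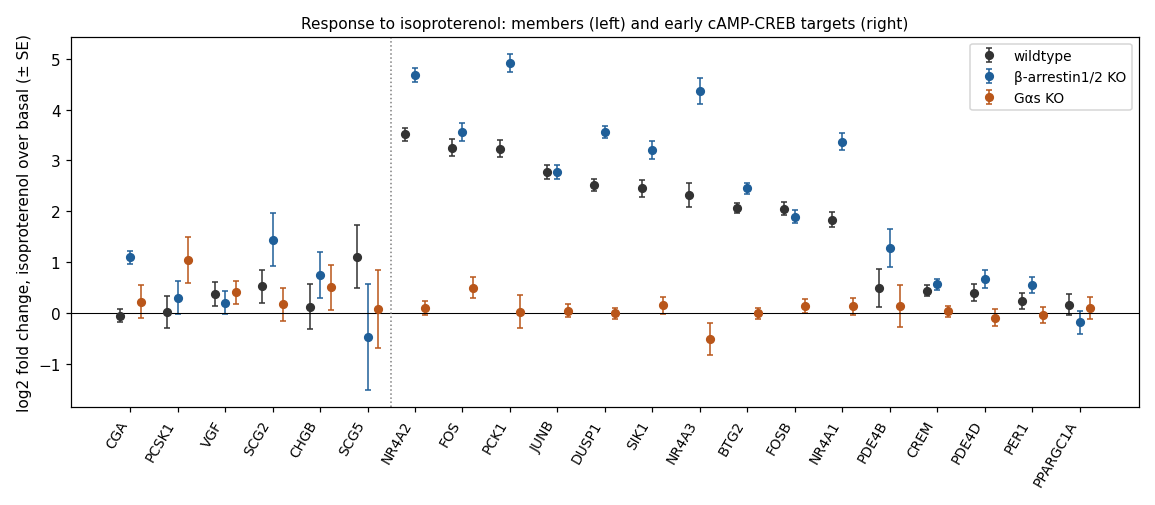
Log2 fold change with isoproterenol over basal in the 3 lines for the 6 members fitted (left of the dotted line) and the 15 early cAMP and CREB targets (right); points are fitted values and bars are SE. CGA lies at 1.10 in β-arrestin1/2 KO and near 0 in wildtype cells, whereas NR4A2 lies at 4.68 and 3.52. In Gαs KO cells the targets lie between -0.51 and 0.50.

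Of 17 factors known at the CGA promoter, 16 were fitted. In the β-arrestin1/2 KO response 1.13% of all genes were called. With isoproterenol 3 of the factors rose in β-arrestin1/2 KO cells. None was called in the other lines, where 4 had an unadjusted p under 0.05 in wildtype and 0 in Gαs KO cells. The 3 that rose were JUN, by 1.01 (SE 0.21, edgeR adjusted p = 0.019), TFAP2C, an AP-2 factor of trophoblast, by 0.60 (SE 0.07, edgeR adjusted p = 7.4e-05), and CREM, by 0.56 (SE 0.11, edgeR adjusted p = 0.012). TFAP2C libraries went from 53.0, 50.7 and 54.2 CPM to 80.5, 75.3 and 83.7 CPM, and the difference from the wildtype response, 0.48 (SE 0.10, edgeR adjusted p = 0.090), was called without wildtype basal replicate 1 (0.47). JUN was called in 13 and CREM in 14 of the 18 fits with a library left out. At basal TFAP2C was higher in β-arrestin1/2 KO by 0.67 (SE 0.07, edgeR adjusted p = 2.6e-06) and lower in Gαs KO than in wildtype cells by 1.18 (SE 0.07, edgeR adjusted p = 6.9e-09), so it shared with CGA the drop in Gαs KO cells and not that in β-arrestin1/2 KO cells. CREM was lower in both, by 1.28 (SE 0.11, edgeR adjusted p = 2.9e-07) and 0.74 (SE 0.11, edgeR adjusted p = 6.8e-05). CREB1 itself was higher in both, by 0.49 and 0.43. In all, 5 of these factors were higher and 2 lower in β-arrestin1/2 KO, and 3 were higher and 5 lower in Gαs KO cells, MSX1 by -0.83 and DLX3 by -0.60. Of all genes, 33.6% and 31.3% were called in these comparisons.

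Of 10 genes of the REST complex and of neuroendocrine identity, 8 were fitted, and 0 were called in a response or in a difference between responses. By edgeR, 1 had an unadjusted p under 0.05 in wildtype cells, 2 in β-arrestin1/2 KO and 0 in Gαs KO cells. Without wildtype basal replicate 1, 2 rose in β-arrestin1/2 KO cells, INSM1 among them (0.73). REST was at 49.5 CPM in wildtype cells, 55.6 in β-arrestin1/2 KO and 68.3 in Gαs KO basal cells and was not called. INSM1, a zinc finger factor of neuroendocrine cells, was lower in Gαs KO than in wildtype cells by 1.49 (SE 0.19, edgeR adjusted p = 2.4e-05). Its libraries held 6.04, 6.53 and 7.07 CPM in wildtype and 2.73, 2.69 and 1.57 CPM in Gαs KO basal cells. RCOR2 was lower in β-arrestin1/2 KO and in Gαs KO cells, by 0.75 and 0.66, the latter not called without wildtype basal replicate 1.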

How the data were processed

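Total RNA was poly(A)-selected and sequenced on an Illumina NovaSeq instrument. The deposited values are unscaled expected counts, that is, what Salmon estimated for each of 184844 transcripts. Per the submitters' processing notes the tools were Salmon 1.7.0 and DESeq2 and the build GRCh38, and the transcript index is not given in the sources used here. Transcripts were joined by Ensembl identifier to GENCODE 29 (161798 matched, 92.9 to 93.7% of counts) and summed by gene, and the sums were rounded. In R 4.3.3, edgeR 4.0.16 scaled libraries by TMM, filterByExpr kept 15519 genes, and its quasi-likelihood test used 1 model of all 18 libraries with the 6 groups as terms. A gene was called at p under 0.05 after Benjamini-Hochberg adjustment over all genes fitted. CPM are TMM-scaled, and TPM used annotated lengths. Both p-values and SD measure the spread between libraries, which the labels give as replicates of a group without saying what was repeated. Intervals on counts cover counting error only.

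The members and the gene lists were chosen with earlier results of these data known. Named from the lists are the called genes of largest change, at most 3 per list and comparison, with a few others given for their role, chosen after their values were seen. Genes like CGA are the 5 with the highest correlation of log2 CPM (prior count 2). Promoter windows are RefSeq's (GRCh38.p14). Strandedness of the kit is not stated, so antisense reads are not told apart. The pipeline was tested on simulated data. Departures of same-numbered libraries from their group means correlated between -0.0993 and 0.0632, so libraries were treated as unpaired. Alternatives were other scalings (DESeq2 size factors, upper quartile), DESeq2 1.42.0, other filters, only the groups compared, a replicate block, GC and length offsets (lowess span 0.3), unmatched transcripts kept, each library left out, and an adjusted p under 0.01. CGA-205 and CGA-206 were examined with transcripts as features, an addition made after seeing the data. Some items are not reported here.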

Additional observations from a re-analysis of the deposited data

Results flagged for a closer look

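The response to isoproterenol differed from that of wildtype cells, by the test of the difference itself in edgeR's model, for these genes of the lists. The β-arrestin1/2 KO response was larger on the log2 scale for NR4A3 by 2.05, PCK1 by 1.7, NR4A1 by 1.54, NR4A2 by 1.16 and DUSP1 by 1.04. NR4A1 was nonetheless lower after isoproterenol in β-arrestin1/2 KO (473 CPM) than in wildtype cells (563 CPM), from basal levels of 45.8 and 158 CPM. The Gαs KO response was smaller than that of wildtype cells for 10 early targets of cAMP and CREB. The differences on the log2 scale were -3.42 for NR4A2, -3.20 for PCK1, -2.83 for NR4A3, -2.76 for FOS, -2.73 for JUNB, -2.52 for DUSP1, -2.30 for SIK1, -2.08 for BTG2, -1.92 for FOSB and -1.71 for NR4A1. Both sets of differences share the wildtype libraries. CGA was chosen on these libraries, so its β-arrestin1/2 KO response, 1.15 above the wildtype response on the log2 scale, is a description and not a test. Its call was lost in 5 of the 18 fits with a library left out and with only the groups compared.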

How the results depend on the processing

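The log2 fold changes of CGA moved by less than 1 SD under all 72 other settings and all 144 fits with a library left out that gave a value. Requiring 10 counts in every library removes CGA, at 8 counts in a Gαs KO basal library, and gave none. CGA in Gαs KO isoproterenol cells was 0.144% of wildtype basal, 0.152% without TMM and 0.156% by TPM. The difference between its responses lost its call with only the groups compared and without β-arrestin1/2 KO basal replicate 1, β-arrestin1/2 KO isoproterenol replicates 1 and 3, or wildtype isoproterenol replicates 2 and 3. Among the other members, VGF in the basal comparison of the KO lines lost its call without Gαs KO basal replicates 1 or 3 or β-arrestin1/2 KO basal replicate 3. For β-arrestin1/2 KO against wildtype at basal, VGF lost it with only the groups compared, and SCG5 with only the groups compared, with unmatched transcripts kept and without β-arrestin1/2 KO basal replicate 2. The causes were not tested.

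Counts of genes called moved more. In the wildtype response 72 genes became 187 with DESeq2, 13 with only the groups compared, 226 with GC and length offsets and 216 with these and the replicate block. In the β-arrestin1/2 KO response 175 became 291, 1161, 378 and 371, and 110 at an adjusted p under 0.01. In the Gαs KO response 0 became 9 with DESeq2. The difference of the β-arrestin1/2 KO from the wildtype response went from 26 to 104, 10, 123 and 121, and 13 at 0.01, and that of the Gαs KO response from 25 to 68, 15, 56 and 52. At basal, with only the groups compared and at 0.01, β-arrestin1/2 KO against wildtype went from 5208 to 1501 and 3326, Gαs KO against wildtype from 4864 to 1587 and 3051, and Gαs KO against β-arrestin1/2 KO from 4064 to 7172 and 2556, the last to 6684 with offsets and 6655 with offsets and block. Over the lists, 34 genes called for β-arrestin1/2 KO at basal became 12 and 22, 30 for Gαs KO became 15 and 19, and 24 between the KO lines became 39 with only the groups compared.

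With 1 library left out, genes called ranged from 56 to 173 in the wildtype response, 113 to 1849 in the β-arrestin1/2 KO response, 15 to 1302 and 19 to 66 in the differences of the β-arrestin1/2 KO and Gαs KO from the wildtype response, and 3074 to 7144 between the KO lines at basal. List genes called ranged from 11 to 23, from 4 to 12 and from 18 to 39 in the β-arrestin1/2 KO response, its difference from wildtype and the basal comparison of the KO lines. Each upper end came without wildtype basal replicate 1. Without wildtype basal replicate 2 the wildtype response had 110 and the difference of the β-arrestin1/2 KO response 42. Without β-arrestin1/2 KO basal replicate 1 or 3 or isoproterenol replicate 1 the β-arrestin1/2 KO response had 113, and without these or isoproterenol replicate 3 its difference from wildtype had 15 to 17. The log2 ratio of CGA-205 and CGA-206 in wildtype cells, 2.26, ranged from 1.94 to 3.16, the latter without basal replicate 3.

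The labels do not say whether the replicate numbers pair the libraries, and the low correlations between same-numbered libraries do not settle it. With the replicate block, genes called in the responses of wildtype, then β-arrestin1/2 KO, then Gαs KO cells were 73, 171 and 0, in the 2 differences 27 and 26, and in the basal comparisons 5133, 4815 and 3968. CGA was at -0.05, 1.09, 0.23, 1.14, 0.28, -1.60, -9.66 and -8.06 in the same order. NTS in the β-arrestin1/2 KO response and PENK between the KO lines at basal were not called with the block. Depth limits SCG5, CHGA and the members at a few counts in a KO line.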
